A study of Mus musculus with 10 samples.

Results

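Chemokines and their receptors were examined in mouse epidermis with and without integrin-linked kinase (ILK), a scaffold protein that couples integrins to the actin cytoskeleton. The members are the genes whose symbol in the platform annotation is that of a numbered CC or CXC chemokine ligand, Cx3cl1, Xcl1, a numbered CC or CXC chemokine receptor, Cx3cr1 or a numbered atypical chemokine receptor (Ackr). They comprise 55 genes with 60 probe sets, of 19938 genes that have a probe set with 1 symbol. Where a gene has several probe sets, the one with the highest mean level stands for it. The 55 genes are 19 CC ligands, 15 CXC and other ligands, 10 CC receptors, 7 CXC and other receptors and 4 atypical receptors. A further 7 probe sets carry several symbols of which at least 1 fits the rule, and they were not analysed here.

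Mice were 3 days old, their epidermis was freed from the dermis with dispase, and its RNA was hybridized to 10 GeneChip Mouse Gene arrays, which give 1 value per probe set. All animals carried the KRT14-cre transgene, Tg(KRT14-cre)1Amc/J, in which the keratin 14 promoter drives Cre recombinase in keratinocytes. The 5 ILK-deficient samples were homozygous for the floxed Ilktm1Star allele, and the 5 ILK-expressing samples carried it on a single chromosome, so that the control tissue also has Cre and a floxed allele. Cells of the epidermis that do not express keratin 14, such as Langerhans cells and T cells, are not targets of this Cre, and it is on such cells that most chemokine receptors are found.

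Chemokines are small secreted proteins that direct the movement of cells. CC and CXC ligands, named for the spacing of their first cysteines, bind G protein-coupled receptors on leukocytes and other cells, are held on heparan sulfate at the cell surface, and can be trimmed by proteases. Atypical receptors take up chemokines without activating G proteins and so limit the amount available. In skin, keratinocytes make some chemokines constantly and others only under inflammatory cytokines, while Langerhans cells, T cells and macrophages carry the receptors.

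No chemokine or chemokine receptor gene passed the test between the genotypes. Of the 55 genes, 50 reached a linear value of 50 on at least 5 of the 10 arrays and were tested. With limma on the deposited log2 values, 0 of 50 were higher and 0 of 50 were lower in ILK-deficient epidermis at an adjusted p under 0.05, while 3.78% of all 32046 probe sets tested passed, 2.81% higher and 0.97% lower. Before adjustment, 4 of 50 genes had a p under 0.05 and were higher, which is 8% against 10.2% of all probe sets, and 2 of 50 were lower, which is 4% against 5.65%. The methods' analysis of variance gave 7 of 50 genes at an unadjusted p under 0.05, or 14% against 15.4% of all probe sets, and 0 after adjustment, against 2.14%. Its rule of a 1.5-fold difference with an unadjusted p under 0.05 took none of the 50 genes, against 780 probe sets, or 2.43%, of the whole table. The shares of all probe sets, here and beside the lists below, include probe sets with no gene symbol or with several. An alternative fit in limma took only probe sets with 1 symbol, averaged per gene, which makes fewer tests. There 9.34% of 18121 genes passed, 1220 higher and 473 lower, and 1 member was higher.

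The log2 fold changes of the 50 genes, as ILK-deficient minus ILK-expressing, ran from -0.75 to 0.55 with a median of 0.01, and 43 of them lay within 0.2 of 0. Of these genes 31 had a positive value, or 62%, against 51% of all probe sets tested. The genotypes did not overlap for 1 of 50 genes, or 2%, with ILK-deficient arrays on top, against 6.33% of all probe sets, of which 4.37% had ILK-deficient arrays above and 1.96% below. The 95% interval of the fold change lay inside 1.5-fold in either direction for 48 of 50 genes, against 82.6% of all probe sets. The members were dimmer than the table, with a median level of 6.54 against 7.48 for all probe sets tested. Values at low signal are compressed, so narrow intervals here do not show that expression was unchanged, and the part of this was not tested. The 2 genes with wider intervals were Ccl6 and Cxcl10. Standard errors on the log2 scale ran from 0.0512 to 0.296, with a median of 0.0895. A level in whole epidermis depends both on how many cells of a type are present and on how much RNA each of them holds, and fewer cells of a type and less RNA per cell cannot be told apart.

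**Figure D1:**
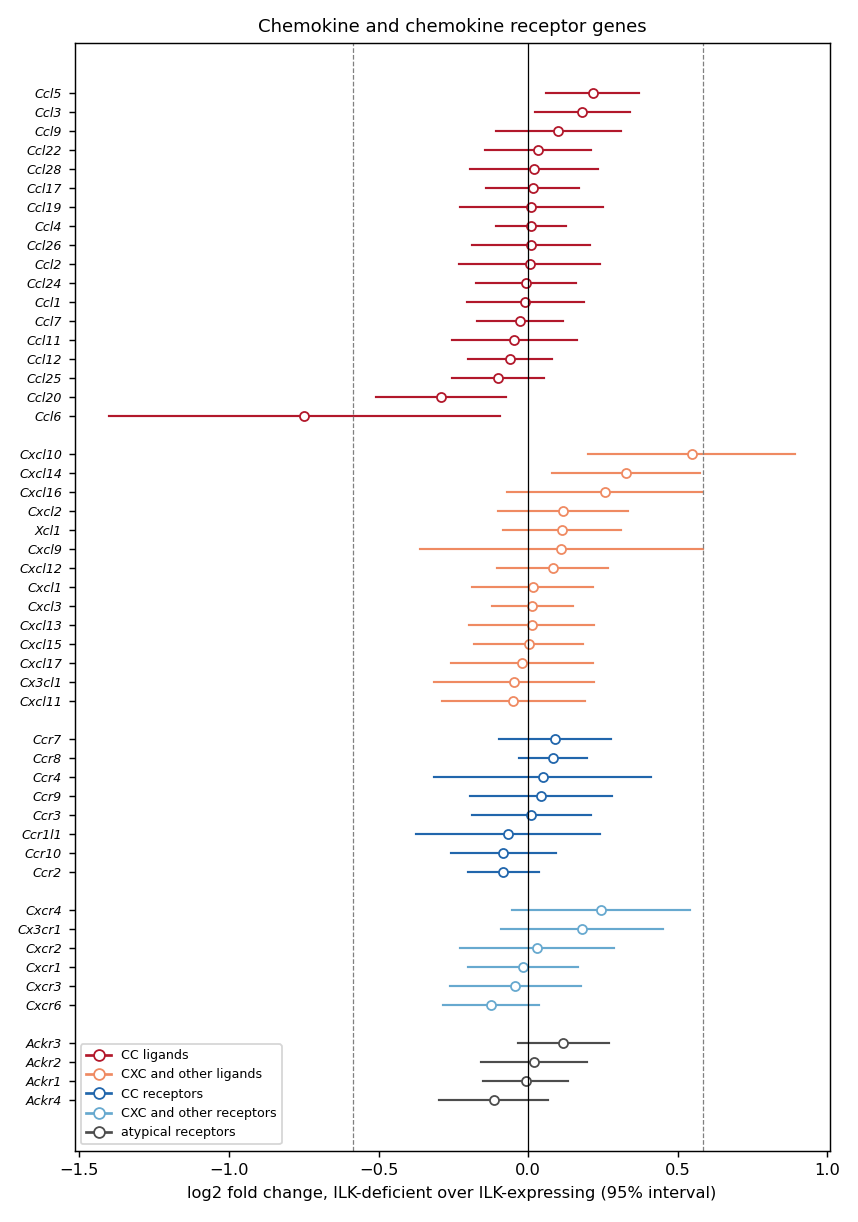
Log2 fold change of each of the 50 tested genes, ILK-deficient over ILK-expressing, on the horizontal axis, grouped by class; lines are 95% intervals from limma and dashed lines mark a 1.5-fold difference. Open circles stand for genes that did not pass the test, which here are all 50, and the intervals of Ccl6 and Cxcl10 alone extend past a dashed line.

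The brightest probe set of the members was that of Cxcl14, a chemokine made constantly by keratinocytes. Probe sets differ in how well they hybridize, so this brightness is no measure of abundance relative to other genes. Cxcl14 was at 11.68, 11.88, 12.09, 11.77 and 11.76 on the 5 ILK-deficient arrays and at 11.57, 11.47, 11.67, 11.17 and 11.67 on the 5 ILK-expressing arrays, all on the log2 scale. Every ILK-deficient array lay above every ILK-expressing array, the highest ILK-expressing and the lowest ILK-deficient arrays being nearly level. The mean was 11.84 ± 0.159 against 11.51 ± 0.211 (SD over 5 arrays each), and the log2 fold change was 0.33 (SE 0.112, 95% interval 0.08 to 0.57). An exact permutation test over the arrays gave p = 0.00794, the smallest value that 5 against 5 arrays allow, but across all probe sets the limma adjusted p was 0.157. Over 21 other ways of processing or choosing the arrays, the log2 fold change stayed between 0.24 and 0.37, and the adjusted p between 0.0834 and 0.369.

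Cxcl10 is induced by interferons and draws activated T cells through CXCR3. On the ILK-deficient arrays it was at 6.78, 7.17, 6.41, 6.85 and 6.80, and on the ILK-expressing arrays at 6.14, 6.15, 6.42, 5.93 and 6.64. Of the ILK-deficient arrays, 4 lay above all ILK-expressing arrays, and replicate 3 lay within their range. The log2 fold change was 0.55 (SE 0.157, 95% interval 0.20 to 0.89), the highest of the 50 genes, with a limma adjusted p of 0.0915 and an exact permutation p of 0.0238. This gene passed the threshold in 3 of 21 alternatives. Its adjusted p was 0.0482 without ILK-deficient replicate 3, 0.0478 without ILK-expressing replicate 5 and 0.0418 where the probe sets of each gene were averaged. Cxcl10 has 1 probe set, so the averaging left its values and its fold change as they were. What changed was the set of genes tested beside it, 18121 in number. Over all 21 alternatives the adjusted p ran up to 0.226.

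Cxcl9 and Cxcl11 are the other ligands of CXCR3 and lie beside Cxcl10 on chromosome 5. Cxcl9 had a log2 fold change of 0.11 (SE 0.214, limma adjusted p = 0.907), with ILK-expressing arrays spread from 6.93 to 8.18 and ILK-deficient arrays within that range. Cxcl11 had a log2 fold change of -0.05 (SE 0.109, limma adjusted p = 0.92), and their receptor Cxcr3 one of -0.04 (SE 0.0988, limma adjusted p = 0.927). The 3 neighbours thus had values from -0.05 to 0.55. Among 15 other genes known to be induced by interferons, 0 passed the test, against 3.78% of all probe sets. Before adjustment, 4 of the 15 had a limma p under 0.05 and were higher, against 10.2% of all probe sets. By the same measure 0 were lower, against 5.65%. All 15 had a positive log2 fold change, from 0.02 to 0.41, with a median of 0.15 against 0.003 over all probe sets tested.

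The ligands that draw neutrophils through CXCR2 sit in another group on chromosome 5. Cxcl1 had a log2 fold change of 0.02 (95% interval -0.19 to 0.22), Cxcl2 one of 0.12 (95% interval -0.10 to 0.33) and Cxcl3 one of 0.01 (95% interval -0.12 to 0.15). Cxcl5, of the same group, did not reach the minimum, with means of 5.52 in ILK-deficient and 5.53 in ILK-expressing epidermis. The receptor Cxcr2 had a log2 fold change of 0.03 (95% interval -0.23 to 0.29). Of 9 tested markers of neutrophils 0 passed. Linear values were summed over all 14 neutrophil markers with a probe set, tested or not. These sums ran from 785 to 845 on ILK-deficient and from 793 to 918 on ILK-expressing arrays.

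Of the remaining CXC and other ligands, Cxcl16, a membrane-bound ligand of CXCR6, had the widest difference. It was at 8.67, 9.05, 8.74, 8.58 and 8.94 on the ILK-deficient arrays and at 8.20, 8.33, 8.98, 8.54 and 8.66 on the ILK-expressing arrays. The genotypes overlapped through ILK-expressing replicates 3 and 5, the former higher than all but a single ILK-deficient array. The log2 fold change was 0.26 (SE 0.147, limma adjusted p = 0.475), and that of its receptor Cxcr6 was -0.13 (SE 0.0727, limma adjusted p = 0.482). Cx3cl1, the membrane-bound ligand of CX3CR1, had a log2 fold change of -0.05 (SE 0.121), and Cxcl12, the ligand of CXCR4, one of 0.08 (SE 0.0841). Xcl1, made by T and NK cells, had one of 0.11 (limma adjusted p = 0.658), and Cxcl13, which draws B cells, one of 0.01 (limma adjusted p = 0.981).

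Among CC ligands, Ccl6 had the largest difference in either direction. Ccl6 is a ligand of mouse myeloid cells that binds CCR1. It was at 7.46, 7.18, 7.14, 7.39 and 7.35 on the ILK-deficient arrays and at 7.61, 8.19, 7.40, 7.79 and 9.27 on the ILK-expressing arrays. The ILK-deficient arrays lay close together at the low end, overlapping with ILK-expressing replicate 3, and a single ILK-expressing array, replicate 5, lay more than a log2 unit above all others. The log2 fold change was -0.75 (SE 0.296, 95% interval -1.40 to -0.09), with a limma adjusted p of 0.231 and an exact permutation p of 0.0159. Without ILK-expressing replicate 5 it was -0.44, with a limma adjusted p of 0.148. It was also -0.44 within the 7 arrays whose sample code begins with a plain D, and -0.44 with the sample code as a block. Replicate 5 is the only array with the sample code C'. Both alternatives therefore set that array aside as well, and are not checks separate from leaving it out. Ccl6 was the one gene of 50 with a difference of 1.5-fold or more, or 2%, against 3.06% of all probe sets.

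Replicate 5 of the ILK-expressing arrays stood apart in the whole table too. Its median correlation with the other arrays of its genotype was 0.975, the lowest of the 10. The immediate neighbours of Ccl6 on chromosome 11, Ccl5, Ccl9, Ccl3 and Ccl4, had log2 fold changes of 0.22, 0.10, 0.18 and 0.01.

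Ccl5 and Ccl3 recruit T cells and macrophages. Ccl5 was at 7.25, 7.16, 7.30, 7.25 and 7.15 on the ILK-deficient arrays and at 6.98, 7.06, 6.91, 7.20 and 6.88 on the ILK-expressing arrays, overlapping through ILK-expressing replicate 4. Its log2 fold change was 0.22 (SE 0.0702), with a limma adjusted p of 0.137 and an exact permutation p of 0.0238. Ccl3 was at 6.54, 6.29, 6.27, 6.32 and 6.21 on the ILK-deficient arrays and at 6.26, 6.08, 6.12, 6.17 and 6.09 on the ILK-expressing arrays. Its genotypes overlapped through ILK-expressing replicate 1 and ILK-deficient replicate 5. Its log2 fold change was 0.18 (SE 0.0717), with a limma adjusted p of 0.232 and an exact permutation p of 0.0159. Ccr1, a receptor for Ccl3, Ccl5 and Ccl6, was under 50 on every array.

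Ccl20 is produced by keratinocytes and attracts cells that carry CCR6, such as precursors of Langerhans cells. It was at 6.99, 6.89, 6.96, 7.02 and 7.02 on the ILK-deficient arrays and at 6.98, 7.31, 7.37, 7.55 and 7.13 on the ILK-expressing arrays. The ILK-deficient values were tightly grouped, and all but replicate 1 of the ILK-expressing arrays lay above them. The log2 fold change was -0.29 (SE 0.0984, 95% interval -0.51 to -0.07), with a limma adjusted p of 0.152 and an exact permutation p of 0.0317. The adjusted p ran from 0.0568 to 0.406 over the 21 alternatives. Its receptor Ccr6 was under 50 on all 10 arrays, with means of 5.37 and 5.35.

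**Figure D2:**
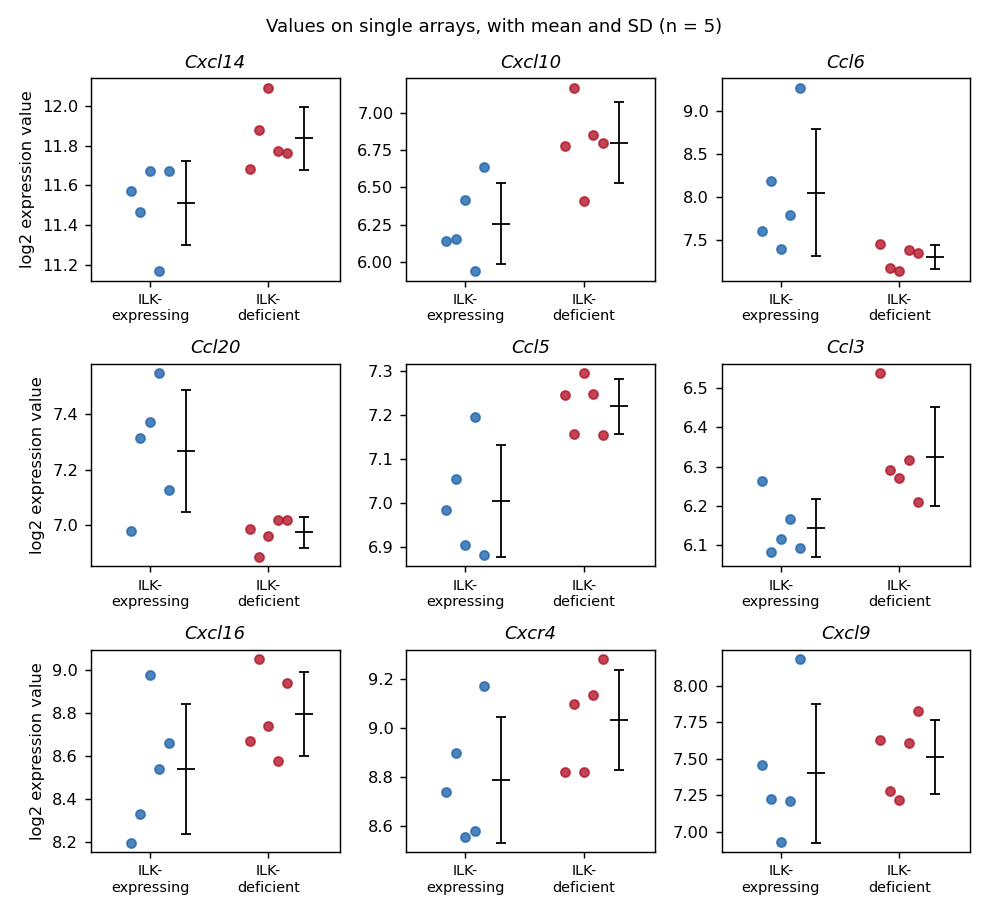
Log2 expression values of 9 members on single arrays (points), with a bar for the mean and SD over 5 arrays at the side; vertical scales differ between panels. Cxcl14 is the gene whose genotypes do not overlap, and the high ILK-expressing array of Ccl6 is replicate 5 at 9.27.

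The monocyte and eosinophil attractants on chromosome 11 showed little difference in their measured values, most of which were dim. Ccl2, Ccl7, Ccl11, Ccl12 and Ccl1 had log2 fold changes from -0.06 to 0.01, and Ccl8, in the same group, was under 50 on all arrays. Means over the 10 arrays were 6.48, 6.44, 7.39, 5.64 and 6.02 in that order, and Ccl12 reached a linear 50 on only 5 arrays. Ccl17 and Ccl22, which draw T cells to skin through CCR4, had log2 fold changes of 0.01 and 0.03, and Ccr4 itself had one of 0.05 (SE 0.164). Ccl19, a ligand of CCR7, had a log2 fold change of 0.01 (SE 0.108) for the brightest of its 5 probe sets, another 2 of which hold identical values. Ccl28, a ligand of CCR10 made by epithelial cells, had one of 0.02 (SE 0.0963).

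Among CC receptors, Ccr7, which guides dendritic cells and T cells to lymph nodes, had a log2 fold change of 0.09 (SE 0.0848, limma adjusted p = 0.742). Ccr10, the receptor of skin-homing T cells, had one of -0.08 (SE 0.0795, limma adjusted p = 0.747). Ccr9, a receptor of gut-homing T cells, had one of 0.04 (SE 0.108), and its ligand Ccl25 one of -0.10 (limma adjusted p = 0.596). The log2 fold changes of the 8 tested CC receptors ranged from -0.08 to 0.09. Ccr2 and Ccr8 were among the 7 genes that the methods' analysis of variance took before adjustment, with log2 fold changes of -0.08 and 0.08. In limma their adjusted p was 0.552 and 0.529, and an exact permutation test gave p = 0.0556 and p = 0.0397.

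Cxcr4, the receptor of Cxcl12 on many leukocytes, had the largest difference of the receptors. It was at 8.82, 9.10, 8.82, 9.14 and 9.28 on the ILK-deficient arrays and at 8.74, 8.90, 8.55, 8.58 and 9.17 on the ILK-expressing arrays. The genotypes overlapped, with ILK-expressing replicate 5 above all but a single ILK-deficient array. The log2 fold change was 0.24 (SE 0.135, 95% interval -0.05 to 0.54), with a limma adjusted p of 0.45. Cx3cr1, a receptor of monocytes and macrophages, had a log2 fold change of 0.18 (SE 0.123, limma adjusted p = 0.582). Cxcr5, the receptor of Cxcl13 on B cells, was under 50 on all arrays.

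All 4 atypical receptors were measured and none passed. Ackr4, which takes up CCL19 and related ligands and is made by keratinocytes, had a log2 fold change of -0.11 (SE 0.0823, limma adjusted p = 0.611). Ackr3, which takes up CXCL12, had one of 0.12 (SE 0.069, limma adjusted p = 0.491). Ackr1, found on vessels and red cells, had one of -0.01 (SE 0.0645), and Ackr2, which takes up inflammatory CC chemokines, one of 0.02 (SE 0.0806).

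Single arrays stood out over many members. ILK-expressing replicate 2 held the highest value of the 10 arrays in 16 of 50 genes, or 32%, against 15.9% of all probe sets. ILK-deficient replicate 2 held the lowest value in 12 genes, or 24%, against 9.83% of all probe sets. Among the 31 genes with a mean under 7, the shares were 38.7% and 35.5%. Shares over all probe sets with a mean under 7 were not computed, so these 2 values have no matched background. ILK-expressing replicate 2 and ILK-deficient replicate 2 also had the highest and the lowest share of probe sets at 50 or more, 91.2% and 87.4%. The part of this in the members' values was not tested. The spread within a genotype was otherwise like that of the table, with a median SD of 0.132 for the members and 0.133 for all probe sets on ILK-deficient arrays, and of 0.155 and 0.161 on ILK-expressing arrays. The Ilk probe set averaged 8.94 ± 0.118 without and 9.17 ± 0.181 with ILK (SD over 5 arrays each), with a limma adjusted p of 0.253 for the difference of -0.23. It also covers exons outside the deleted stretch, and so is a weak check of the labels.

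Of chemokine-related genes that the symbol rule leaves out, such as Pf4, Xcr1 and Ccrl2, 8 were tested and 0 passed, against 3.78% of all probe sets. Mif, a cytokine that binds CXCR2 and CXCR4, was the lowest with a log2 fold change of -0.60 (SE 0.152, limma adjusted p = 0.0598). Its highest ILK-deficient and lowest ILK-expressing arrays were both at 11.10, and it passed in 2 of 21 alternatives. These were averaging the probe sets of each gene, with an adjusted p of 0.0266, and leaving out ILK-deficient replicate 2, with an adjusted p of 0.0421. Cklf, a chemokine-like factor, had a log2 fold change of 0.38 (SE 0.138, limma adjusted p = 0.187).

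Some genes tied to how chemokines are held or trimmed outside the cell did pass. Of 16 tested genes for presentation and processing of chemokines, 2 rose and 1 fell, with a median log2 fold change of 0.06, against 2.81% higher and 0.97% lower among all probe sets. Ext1, an enzyme that builds the heparan sulfate chains on which chemokines are held, rose from 10.57 ± 0.183 to 11.29 ± 0.162 (SD, n = 5 each; limma adjusted p = 0.00664). Mmp2, a metalloproteinase that can trim chemokines, rose from 9.50 ± 0.318 to 10.30 ± 0.153 (SD, n = 5 each; limma adjusted p = 0.0155). Dpp4, a peptidase that removes the first amino acids of several chemokines, including CXCL10 and CXCL12, fell from 10.20 ± 0.101 to 9.78 ± 0.126 (SD, n = 5 each; limma adjusted p = 0.0155). Within the arrays of sample code D the adjusted p was 0.0805 for Ext1 and 0.144 for Dpp4, with log2 fold changes of 0.58 and -0.33. The call of Dpp4 was also lost with the replicate number as a block, at a limma adjusted p of 0.0649. Mmp2 passed in all 21 alternatives.

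Of 26 tested genes that act downstream of chemokine receptors, 2 rose and 0 fell, against 2.81% and 0.97% of all probe sets, with a median log2 fold change of 0.05. Pik3cg, the phosphoinositide 3-kinase subunit activated by G protein-coupled receptors, rose by a log2 fold change of 0.77 (SE 0.163, limma adjusted p = 0.029). Prex1, an exchange factor that activates Rac, rose by 0.34 on the same scale (SE 0.0711, limma adjusted p = 0.028). Without any single array other than ILK-deficient replicate 3, the adjusted p of Pik3cg was between 0.0517 and 0.0699, above the threshold. That of Prex1 was between 0.0528 and 0.0723 without replicate 1, 2 or 5 of the ILK-deficient or replicate 1, 4 or 5 of the ILK-expressing arrays. In 9 of 21 alternatives for Prex1 and 12 for Pik3cg the call was lost, with the same direction.

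Chemokine genes are targets of NF-kappaB and of cytokines such as TNF and IL-1. Of 19 tested genes of the NF-kappaB pathway 1 rose and 0 fell, against 3.78% called among all probe sets, with a median log2 fold change of 0.13. It was Tnfaip3, which encodes the feedback inhibitor A20, with a log2 fold change of 0.99 (SE 0.188, limma adjusted p = 0.0185). Its call was lost in 4 of 21 alternatives, with an adjusted p of 0.0529 without ILK-deficient replicate 5, 0.0534 with the sample code as a block, 0.0574 by the methods' analysis of variance and 0.204 within sample code D. Of 18 tested cytokines that induce chemokines 1 rose and 0 fell, against the same 3.78%, with a median log2 fold change of 0.00. It was Tslp, an epithelial cytokine that acts on dendritic cells, with a log2 fold change of 2.60 (SE 0.395, limma adjusted p = 0.00742). Within sample code D its log2 fold change was 2.61 with an adjusted p of 0.0652. Ccl17 and Ccl22, which dendritic cells exposed to TSLP are known to make, had the values of 0.01 and 0.03 given above. Both were dim, with means of 5.63 and 5.94 over the 10 arrays, and Ccl17 reached a linear 50 on only 5 of them. At such levels a difference could go unseen.

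**Figure D3:**
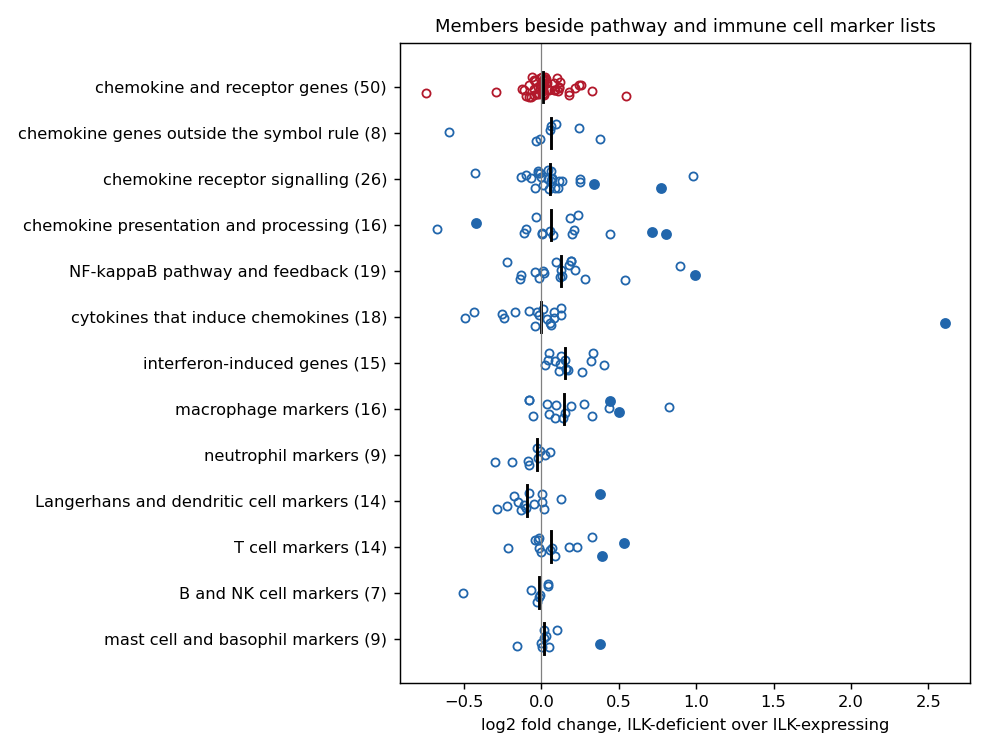
Log2 fold change, ILK-deficient over ILK-expressing, of the 50 tested chemokine and receptor genes (red) and of the tested genes of 12 pathway and immune cell marker lists (blue), with the number of tested genes in parentheses. Filled points passed the test, open points did not, and the black bar is the median; no filled point appears among the chemokine and receptor genes.

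Markers of the cells that carry chemokine receptors were set beside these values. Of 16 macrophage markers 2 rose and 0 fell, against 2.81% and 0.97% of all probe sets. Adgre1, which encodes a surface receptor typical of mouse macrophages, had a log2 fold change of 0.50 (SE 0.0839, limma adjusted p = 0.0107), and within sample code D one of 0.46 with an adjusted p of 0.0896. Lyz2, whose near-identical copy Lyz1 could share its signal, had one of 0.45 (SE 0.101, limma adjusted p = 0.0375). C1qb, a chain of the complement component C1q that macrophages make, had the largest difference of the list, 0.82 on the log2 scale (SE 0.212, limma adjusted p = 0.0622), and did not pass. It passed in 2 of 21 alternatives, with an adjusted p of 0.0224 without ILK-expressing replicate 3 and 0.0256 where probe sets were averaged. C1qb too has 1 probe set, so the averaging changed the set of genes tested and not its values. Csf1r, a defining receptor of macrophages, did not pass either, with a log2 fold change of 0.15 (SE 0.146, limma adjusted p = 0.744). The summed linear values of the 16 markers ran from 2078 to 2484 on ILK-deficient and from 1769 to 2131 on ILK-expressing arrays. The call of Lyz2 was lost without any single array other than ILK-deficient replicate 5, with adjusted p from 0.0546 to 0.0805, and in 14 of 21 alternatives in all.

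Of 14 tested markers of T cells 2 rose and 0 fell, against 2.81% and 0.97% of all probe sets. Icos, a costimulatory receptor, had a log2 fold change of 0.54 (SE 0.11, limma adjusted p = 0.0261), and Thy1, found on T cells and also on other cells of skin, one of 0.39 (SE 0.0917, limma adjusted p = 0.0421). Cd3e, a defining part of the T cell receptor complex, did not pass, with a log2 fold change of 0.18 (SE 0.268, limma adjusted p = 0.871). Linear values were summed over all 16 T cell markers with a probe set, tested or not. These sums ran from 2040 to 2881 on ILK-deficient and from 1854 to 2806 on ILK-expressing arrays. The call of Icos was lost without any single array other than ILK-expressing replicate 2 or ILK-deficient replicate 3, with adjusted p from 0.0521 to 0.0657, and in 11 of 21 alternatives in all. The call of Thy1 was lost without any single array other than ILK-expressing replicate 3, with adjusted p from 0.0522 to 0.103, and in 16 of 21 alternatives in all.

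Of 14 markers of Langerhans and dendritic cells 1 rose and 0 fell, against 2.81% and 0.97% of all probe sets. It was Ctss, a lysosomal protease that macrophages also make, with a log2 fold change of 0.38 (SE 0.0874, limma adjusted p = 0.0394). Without any single array other than ILK-expressing replicate 3 or ILK-deficient replicate 4 its adjusted p was between 0.0614 and 0.103, and the call was lost in 14 of 21 alternatives in all. Cd74, the invariant chain of class II molecules, had a log2 fold change of -0.29 (SE 0.165, limma adjusted p = 0.469). Summed linear values of these markers ran from 6837 to 8917 on ILK-deficient and from 6528 to 11398 on ILK-expressing arrays. The part of cell numbers in the values of the chemokine and receptor genes was not tested.

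Lists of other cell types in the tissue were counted in the same way. Of 14 markers of hair shaft and sheath 13 fell, with a median log2 fold change of -3.63, and of 10 melanocyte markers 7 rose, with a median of 1.13, against 0.97% of all probe sets lower and 2.81% higher. Of the remaining lists, keratinocyte markers had 1 higher and 1 lower gene of 13, outer root sheath and bulge markers 5 higher and 1 lower of 11, fibroblast markers 1 higher of 12, and mast cell and basophil markers 1 higher of 9. The fibroblast marker was Thy1, the same probe set that is counted above among the T cell markers. Endothelial, platelet and erythroid, and B and NK cell markers had 0 called genes of 11, 5 and 7. What part these differences have in the members' values was not tested.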

How the data were processed

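The deposited values are log2 expression values per probe set, which the authors made from GeneChip Mouse Gene 1.0 ST arrays by background adjustment, quantile normalization and summary over probes. Of GC-RMA and RMA, both named in the methods, the one behind this table is not given in the sources used here. RMA-type values compress differences at low signal, and 31 of 50 tested members had a mean under 7. The precision is limited by the number of arrays. Whether samples came from separate litters is not given, so p-values measure the spread between these samples.

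The 32046 of 35556 probe sets that reached a linear 50 on 5 or more of the 10 arrays were tested with limma 3.58.1 in R 4.3.3, with no block, and Benjamini-Hochberg adjustment over all of them. Single genes were also compared with a two-sided exact permutation test over 252 splits. Genes were named from probe sets with 1 symbol (21789), and 1621 carried several and 12146 none. Neighbours (within 1 Mb) were taken from RefSeq gene order in GRCm38.p6, and no coordinates are given. The fit was also tested on simulated data, whose setting and outcome are not reported here, and no result above rests on it.

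The members and the 19 lists were chosen with earlier results of these data known. Named are the 10 members with the largest absolute log2 fold change, the 4 with the highest mean of each class, and of each list up to 3 genes past the test and up to 2 of the brightest that were not; other genes named were picked after their values were seen. Alternatives changed the filter, test, weights, scaling, block, arrays or probe sets per gene.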

Additional observations from a re-analysis of the deposited data

Results flagged for a closer look

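Of 176 groups of 5 arrays examined for a single array far from the other 4, 6 had one, and chance alone flags about 1 in 20 groups. In ILK-deficient replicate 2, Ackr2 was at 6.29 with the other arrays between 6.55 and 6.63, Ccl12 at 5.50 with the others between 5.62 and 5.67, and Cxcl13 at 6.96 with the others between 7.18 and 7.27. In ILK-deficient replicate 3, Xcl1 was at 7.01 with the others between 7.35 and 7.42. In ILK-expressing replicate 2, Ccr10 was at 7.04 with the others between 6.70 and 6.79. In ILK-expressing replicate 4, Cxcl5 was at 5.66 with the others between 5.46 and 5.51.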

How the results depend on the processing

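Over 21 alternatives, the number of members that were lower stayed at 0. The number that were higher was 1 (Cxcl10) in 3 of them and 0 otherwise. Among the 3 was the averaging of the probe sets of each gene, which makes 18121 tests. Leaving out each array in turn gave 0 to 1 higher members, the 1 being Cxcl10 without ILK-deficient replicate 3 or ILK-expressing replicate 5. List genes called numbered 41, against 24 to 36 when an array was left out. Of the 23 members followed one by one, 9 changed sign, none of them called; the signs of the other members were not followed. Within the arrays of sample code D, whose meaning the labels do not give, the log2 fold change was 0.0271 for Ackr1, -0.00356 for Ackr2, -0.0301 for Ccl19, 0.0166 for Cx3cl1 and 0.0551 for Cxcr3. With arrays centred on their median it was -0.0058 for Ackr2 and -0.0158 for Ccl19, and with quantile normalization repeated -0.0168 for Ccl19. Array weights gave -0.0130 for Ccl19, 0.0096 for Cx3cl1 and 0.0241 for Cxcr3, the sample code as a block -0.0579 for Ccl19 and 0.0260 for Cx3cl1, and averaged probe sets -0.0037 for Ccl19. Leaving out each array gave -0.0329 to 0.0273 for Ackr1, -0.00314 to 0.0815 for Ackr2, -0.11 to 0.0084 for Ccl11, -0.0621 to 0.0605 for Ccl19, -0.0771 to 0.17 for Ccr4, -0.0287 to 0.11 for Ccr9, -0.11 to 0.0196 for Cx3cl1, -0.0066 to 0.31 for Cxcl9 and -0.11 to 0.0066 for Cxcr3. The cause of these shifts was not tested.

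The replicate numbers that both genotypes share did not pair the arrays: deviations of same-numbered arrays correlated at -0.0231, -0.296, -0.179, -0.11 and 0.113. With the replicate number as a block, 0 members were higher and 0 lower, 32 list genes were called against 41 (the adjusted p of Dpp4 was 0.0649, of Adgre1 0.0689, of Pik3cg 0.0711, of Lyz2 0.112, of Prex1 0.123, of Ctss 0.0911 and of Thy1 0.154), and over all probe sets 477 were higher and 131 lower against 900 and 311. The part of the table called also moved with other settings, to 193 higher and 101 lower within sample code D and to 528 and 158 by the methods' analysis of variance. No array correlated best with its own number. Of 882 values of single genes under an alternative, 756 kept their direction and side of the threshold, 86 lost a call, 7 gained one and 33 changed sign. Dim probe sets limit what small differences can be seen, since 5 members did not reach the minimum and were not tested.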
